A study of Sus scrofa with 8 samples.

Results

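The 8 genes described here encode LIF and IL6, gp130 (IL6ST), which is the signalling chain their receptors share, and the receptors that pair with it, LIFR, OSMR, CNTFR, IL11RA and IL6R. They were taken from the deposited count table by symbol and are 8 of its 24358 Ensembl genes, of which 14692 have a symbol in the reference table of pig gene names. The members were examined because the cells are grown with LIF. The study asked how IRF-1 affects the pluripotency of porcine induced pluripotent stem cells (piPSCs). Its RNA-seq compared cells that overexpress IRF-1 with control cells, with 2 libraries in each group.

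Both groups were DOX-hLIF-2i piPSCs, from domestic pig and given as adult in the labels. According to the methods, the lines came from porcine embryonic fibroblasts carrying an OCT4-tdTomato reporter, were reprogrammed with doxycycline-inducible lentiviral OCT4, SOX2, KLF4 and c-MYC, and stayed on doxycycline. Their medium held human LIF, porcine LIF from the supernatant of transfected CHO cells, the GSK3 inhibitor CHIR99021 and the MEK inhibitor PD0325901, whereas the labels name an LCDMV culture system. The medium in use for these libraries was not settled. The vector in the overexpressing cells was PB-CAG-IRF1-Flag, in which the CAG promoter drives pig IRF1 with a Flag tag, and libraries of these cells are named replicates 1 and 3. The controls, replicates 6 and 8, had the vector PB-CAG-Flag in its place, and puromycin selection was applied to both. Before RNA extraction the feeder cells were depleted by letting them attach to a plate. The genotype label reads overexpression for all 4 libraries, and the assignment to groups follows the legend of the study's t-SNE map, which names the libraries by number. No source says that the replicates were separate cultures, so p-values measure the spread between these libraries, which may be technical only.

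Cytokines of this family signal through gp130, which cannot bind most of them by itself. LIF first binds LIFR and the pair then takes up gp130. Oncostatin M binds gp130 first and then recruits OSMR or LIFR, and CNTFR, IL11RA and IL6R are alpha chains that hold CNTF, IL11 or IL6 but do not signal themselves. The assembled receptor activates JAK kinases and STAT3, which in mouse embryonic stem cells carries the LIF signal that maintains self-renewal.

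The reads counted on genes numbered 24923319 and 20858333 in IRF-1 overexpressing replicates 1 and 3, and 15925429 and 17097669 in control replicates 6 and 8. A count of 3 was taken as the floor and corresponded to between 0.12 and 0.188 CPM, which are counts scaled to a library total of 1000000. Replicates differed by more than counting noise, with a chi-square per degree of freedom of 19.0 in the overexpressing and 32.7 in the control cells. This does not show that they were separate cultures, and each library was kept as a sample of its own. IRF1 was used to check the groups and had 8206 and 5485 counts with IRF-1 overexpression against 55 and 56 in the controls. Its log2 fold change was 6.46, with a standard error of 0.21 (adjusted p = 3.65e-05, quasi-likelihood test of edgeR, Benjamini-Hochberg adjustment).

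IL6R, OSMR and LIFR were higher in the IRF-1 overexpressing cells, CNTFR was lower, and IL6ST lay at nearly the same level in both groups. Of the 8 members, 7 passed the filter on low counts and were tested. A call required an adjusted p under 0.05 together with a log2 fold change whose size was 1 or more, and 4 of the 7 tested members were called, 3 of them higher and 1 lower. Over all 13250 genes tested, 19.3% were called, 8.61% higher and 10.6% lower. The median log2 fold change of the 7 members was 0.02, against -0.002 over all genes tested. In 6 of the 7 the CPM of the groups did not overlap, but this held for 68.6% of all genes tested as well. The smallest two-sided p that an exact permutation test allows for any one gene in this design is 0.333, and the adjusted p-values therefore lean on edgeR's pooling of the spread across genes. These are bulk libraries, in which fewer cells expressing a gene and less of its RNA per cell cannot be told apart.

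**Figure D1:**
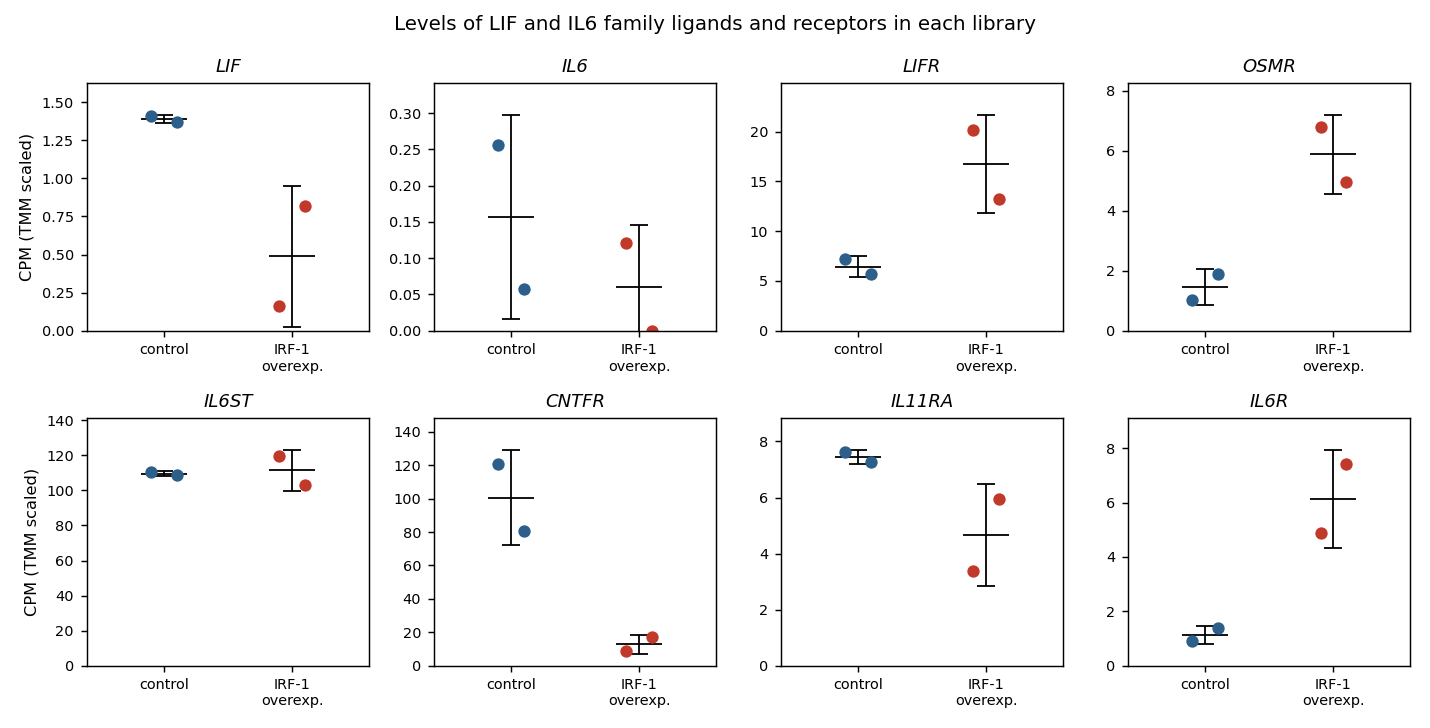
CPM scaled by TMM of LIF, IL6 and their receptors in each library, with 2 control and 2 IRF-1 overexpressing libraries per gene (points, replicates 6 and 8, then 1 and 3), the mean (long line) and the SD (capped bars). Each axis starts at 0 and has its own scale, and the points of the groups overlap for IL6ST and IL6 but not for the other 6 genes.

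IL6ST (ENSSSCG00000016916, minus strand of chromosome 16 of Sscrofa11.1, 35101306 to 35151841) is the chain through which all the receptors described here signal. It had 2971 and 2148 counts in overexpressing replicates 1 and 3 and 1726 and 1902 in control replicates 6 and 8, which is 120, 103, 110 and 109 CPM in the same order. The overexpressing libraries lay on either side of both controls, with means of 111 ± 11.5 and 110 ± 1.22 CPM (SD, n = 2 per group). The log2 fold change was 0.02, with a standard error of 0.143 (adjusted p = 0.919, edgeR with Benjamini-Hochberg adjustment), and its 95% interval ran from -0.31 to 0.36. A change in either direction of more than 1.28-fold thus lay outside the interval. It was the member with the narrowest interval and, by counts, the most deeply covered in the overexpressing libraries.

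LIFR (ENSSSCG00000016850, minus strand of chromosome 16, 23629867 to 23767990) is the chain that binds LIF and signals together with gp130. It had 502 and 275 counts with IRF-1 overexpression and 112 and 99 in the controls, or 20.2 and 13.2 CPM against 7.17 and 5.66 CPM. Both overexpressing libraries were above both controls, and overexpressing replicate 1 was the highest. The log2 fold change was 1.38, with a standard error of 0.291 (95% interval 0.71 to 2.06, adjusted p = 0.0106 in edgeR with Benjamini-Hochberg adjustment), a 2.61-fold difference. Without overexpressing replicate 1 it was 1.06 with an adjusted p of 0.0952 in edgeR, and the call was lost, as it was with glmTreat, which tests for a change beyond the minimum (0.247). Over all 14 alternatives the adjusted p of LIFR ranged from 4.66e-05 to 0.247.

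OSMR (ENSSSCG00000016851, plus strand of chromosome 16, 24041345 to 24102177), the signalling chain for oncostatin M, had 169 and 103 counts with IRF-1 overexpression and 16 and 33 in the controls. This is 6.80 and 4.95 CPM against 1.02 and 1.89 CPM, so that the lower overexpressing library still stood above the higher control. The log2 fold change was 2.00, with a standard error of 0.42 (95% interval 1.03 to 2.98, adjusted p = 0.0105 in edgeR with Benjamini-Hochberg adjustment). As for LIFR, the call was lost without overexpressing replicate 1, where the log2 fold change was 1.77 and the adjusted p 0.0708 in edgeR, and with glmTreat (0.0736), within a range of 5.86e-05 to 0.0736 over 14 alternatives.

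CNTFR (ENSSSCG00000010974, plus strand of chromosome 10, 32172090 to 32251503) encodes the alpha chain for ciliary neurotrophic factor, which acts with LIFR and gp130. It had 219 and 352 counts in overexpressing replicates 1 and 3 and 1886 and 1410 in control replicates 6 and 8, or 8.81 and 16.9 CPM against 121 and 80.6 CPM. The groups were far apart, although the libraries within each group also differed. The log2 fold change was -2.97, with a standard error of 0.329 (95% interval -3.74 to -2.21, adjusted p = 0.000911 in edgeR with Benjamini-Hochberg adjustment), which is a 7.85-fold lower level in the overexpressing cells. This was the member with the largest change in size among the 7 tested, and it was called under all 14 alternatives.

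IL6R (ENSSSCG00000027628, minus strand of chromosome 4, 95322434 to 95381338), the alpha chain for IL6, had 121 and 154 counts with IRF-1 overexpression and 14 and 24 in the controls. In CPM these were 4.87 and 7.40 against 0.896 and 1.37, with no overlap between the groups. Its log2 fold change was 2.42, with a standard error of 0.419 (95% interval 1.44 to 3.40, adjusted p = 0.00486 in edgeR with Benjamini-Hochberg adjustment), or 5.35-fold, and it too was called under all 14 alternatives. IL11RA (ENSSSCG00000010968, minus strand of chromosome 10, 32130894 to 32148448), the alpha chain for IL11, had 84 and 124 counts with IRF-1 overexpression and 119 and 127 in the controls, or 3.38 and 5.96 CPM against 7.62 and 7.26 CPM. Both overexpressing libraries were below both controls, but they differed from each other by more than replicate 3 differed from the controls. Its log2 fold change of -0.68 (95% interval -1.49 to 0.14, with a standard error of 0.349) did not pass the test (adjusted p = 0.189 in edgeR with Benjamini-Hochberg adjustment). Exons of IL11RA share 397 bases with CCL27 on the opposite strand, and CCL27 was listed at 0 counts in all 4 libraries.

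The ligand genes had low counts, and IL6 was at or near the floor. In the controls LIF had about as many counts as IL6R (14 and 24) and OSMR (16 and 33), whose fold changes thus also rest on low control counts. LIF (ENSSSCG00000040961, minus strand of chromosome 14, 47221486 to 47228273) had 4 and 17 counts with IRF-1 overexpression and 22 and 24 in the controls, or 0.161 and 0.817 CPM against 1.41 and 1.37 CPM. The controls were nearly equal, both overexpressing libraries were below them, and replicate 1 was just above the floor. Its log2 fold change was -1.54 (95% interval -3.15 to 0.08, with a standard error of 0.696) and was not called (adjusted p = 0.14 in edgeR with Benjamini-Hochberg adjustment). LIF passed the low-count filter through the control libraries, and overexpressing replicate 1 decided its value. Without overexpressing replicate 1 the log2 fold change was -0.75 (adjusted p = 0.583 in edgeR). Without replicate 3 it was -3.05 and past the threshold (adjusted p = 0.0478 in edgeR), the lowest of a range up to 0.647 over 14 alternatives. IL6 (ENSSSCG00000020970, plus strand of chromosome 9, 91506340 to 91511491) had 3 and 0 counts with IRF-1 overexpression and 4 and 1 in the controls and was not tested. At this depth a fall or a small rise in IL6 could not be detected. The LIF protein added to the medium does not appear in these counts.

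For a comparison between genes, CPM were divided by the summed exon length of each gene in kilobases (per-length level). In the control cells CNTFR was the highest of the 8, with a per-length level of 45.9 ± 12.9 (SD, n = 2), followed by IL6ST with 15.5 ± 0.172. IL11RA (1.32 ± 0.0445), LIFR (0.633 ± 0.105), LIF (0.341 ± 0.00622), OSMR (0.263 ± 0.11), IL6R (0.202 ± 0.0599) and IL6 (0.077 ± 0.0692) came next in that order. Libraries of neighbours in this order overlapped for LIF and OSMR and for OSMR and IL6R and were apart for the other neighbours. In the IRF-1 overexpressing cells IL6ST was highest at 15.7 ± 1.63, and CNTFR came after it at 5.87 ± 2.62. LIFR (1.65 ± 0.488), IL6R (1.09 ± 0.319), OSMR (1.06 ± 0.237) and IL11RA (0.827 ± 0.323) followed. Neighbours among these overlapped, whereas IL11RA and LIF were apart. LIF (0.12 ± 0.114) and IL6 (0.0297 ± 0.042) were lowest and overlapped with each other. On this scale the leading places of CNTFR and IL6ST were exchanged between the groups. Without the length correction CNTFR led in control replicate 6 (121 against 110 CPM) but not in control replicate 8 (80.6 against 109 CPM), so the exchange rests on that correction. Per length, IL11RA moved from the place above LIFR to the place below OSMR.

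Since the chains act in complexes with gp130, each receptor was also expressed as a share of the per-length level of IL6ST in the same library, with no test. LIFR stood at 11.8% and 8.97% of IL6ST in overexpressing replicates 1 and 3 and at 4.54% and 3.65% in control replicates 6 and 8. OSMR stood at 7.30% and 6.15% against 1.19% and 2.23%, and IL6R at 5.14% and 9.05% against 1.02% and 1.59%. For these receptors, both overexpressing libraries had the higher shares. CNTFR went from 354% and 240% of IL6ST in the controls to 23.9% and 53.0% in the overexpressing libraries. IL11RA stood at 3.55% and 7.25% with IRF-1 overexpression and at 8.66% and 8.38% in the controls. The summed per-length level of the alpha chains CNTFR, IL11RA and IL6R was 47.5 ± 12.9 in the controls and 7.79 ± 3.26 with IRF-1 overexpression (SD, n = 2 per group). CNTFR made up 97.3% and 96.0% of this sum in the controls and 73.3% and 76.5% in the overexpressing libraries. The sum of LIFR and OSMR, the chains with a signalling domain that pair with gp130, was 0.897 ± 0.00505 in the controls and 2.71 ± 0.725 in the overexpressing cells.

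Several members lie close to each other. LIFR and OSMR are neighbours on chromosome 16, on opposite strands with 273354 bases and 0 annotated genes between them, and both were called higher. EGFLAM, the next gene on the side of LIFR, had a log2 fold change of 0.65 (adjusted p = 0.128 in edgeR) and RICTOR, near OSMR, one of 0.05 (adjusted p = 0.885 in edgeR). Neither was called. FYB1, which overlaps the end of OSMR on the opposite strand without shared exon bases and spans RICTOR, had 14 and 14 counts with IRF-1 overexpression against 0 and 2 in the controls and was called higher (adjusted p = 0.0361 in edgeR, at most 0.164 over the alternatives that tested it). It passed the low-count filter through the overexpressing libraries only. Its controls were under the floor, so no fold change is given, and the call was lost with DESeq2, with glmTreat and without overexpressing replicate 1 or control replicate 6. These neighbours were chosen by position after their values were seen, as were the genes named next. CNTFR and IL11RA lie 23641 bases apart on chromosome 10. GALT, which lies between them, had a log2 fold change of 0.32 and was not called (adjusted p = 0.177 in edgeR). ARID3C and DCTN3 lie within the span of CNTFR on the same strand without shared exon bases. ARID3C had 8 and 6 counts with IRF-1 overexpression against 55 and 36 in the controls, through which alone it passed the filter. For ARID3C the log2 fold change was -3.16, with a standard error of 0.529 (adjusted p = 0.00425 in edgeR). DCTN3 had 1551 and 1323 counts against 813 and 725, and its log2 fold change was 0.43 (adjusted p = 0.0813 in edgeR). The strand setting of the counts is not given in the sources used here.

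The genes whose log2 CPM over the 4 libraries, centred on its own mean, came closest to that of LIFR were PARM1, ADORA2B and MYLIP, with root mean square differences of 0.0529, 0.0565 and 0.0567. For IL6ST they were WBP4, TMEM97 and HDGFL3, at 0.00996, 0.0139 and 0.018. LIFR and IL6ST were each compared with 10634 genes that had a symbol and a mean of at least 1 CPM, and 16 genes lay within 0.1 of LIFR against 679 within 0.1 of IL6ST. Likeness over 4 libraries carries little information.

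The other genes of the pathway were taken as 5 lists, in which 87 of 98 genes have an identifier in the table and 67 were tested. Of these, 9 were called higher and 11 lower, together 29.9% of those tested, and their median log2 fold change was -0.32. Over all genes tested 19.3% were called, 8.61% higher and 10.6% lower, with a median of -0.002. Of the 67, 60 passed the low-count filter in both groups, and of these 7 were called higher and 8 lower, beside 782 and 1123 of all 11933 genes that did so. With glmTreat, 3 of these genes were called higher (JAK1, NR5A2 and LEPR) and 4 lower (SHC1, ESRRB, IER3 and BCL2L1), and the rest of their calls were lost. Among the other ligands and receptors of the gp130 family, 8 of 11 had an identifier and 2 were tested. IL27RA, the receptor chain for IL27, was called lower. It had 198 and 173 counts with IRF-1 overexpression against 344 and 333 in the controls, and a log2 fold change of -1.33, with a standard error of 0.214 (adjusted p = 0.00356 in edgeR, 0.175 with glmTreat). PALM3 on the opposite strand has 3049 exon bases in common with IL27RA, so this count is uncertain. The ligand genes on the list, CLCF1, CTF1, IL11, IL27 and EBI3, had at most 18 counts in any library, and IL27 had 0 in all 4.

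Of 18 tested genes that carry the gp130 signal, 2 were higher, 1 was lower and 15 were not called, with a median log2 fold change of -0.009. JAK1, the kinase on which gp130 signalling chiefly depends, had 1029 and 648 counts with IRF-1 overexpression and 156 and 155 in the controls, with no overlap in CPM (36.3 ± 7.26 against 9.42 ± 0.794, SD, n = 2 per group). JAK1 thus had a log2 fold change of 1.95, with a standard error of 0.217 (adjusted p = 0.000917 in edgeR). The other receptor-bound kinases were not called, with 0.47 for TYK2 (adjusted p = 0.0504 in edgeR) and 0.09 for JAK2 (adjusted p = 0.838 in edgeR). STAT3, the transcription factor downstream, had 2597 and 1766 counts with IRF-1 overexpression and 771 and 789 in the controls. Its log2 fold change of 1.00, with a standard error of 0.158 (adjusted p = 0.00329 in edgeR), lay at the fold-change minimum, and it was 0.86 without overexpressing replicate 1 and 0.95 without control replicate 8. With scaling by library size alone it came just short of the minimum. Exons of STAT3 share 957 bases with STAT5A on the opposite strand. SHC1, an adaptor that links receptors to the RAS and MAPK pathway, was lower by a log2 fold change of -1.80, with a standard error of 0.164 (adjusted p = 0.0005 in edgeR). PTPN11, the phosphatase SHP2 that binds gp130 and LIFR, was not called at -0.23 (adjusted p = 0.244 in edgeR).

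Among inhibitors of the pathway and the proteases that shed its receptors, 15 genes were tested and 1 was called. This was SOCS1, an inhibitor of JAK kinases, which had 700 and 595 counts with IRF-1 overexpression against 187 and 208 in the controls. For SOCS1 the log2 fold change was 1.25, with a standard error of 0.184 (adjusted p = 0.00247 in edgeR, 0.228 with glmTreat). SOCS3, the feedback inhibitor that binds gp130 and is itself induced by STAT3, had 378 and 324 counts against 344 and 151. The overexpressing libraries were alike at 15.4 ± 0.255 CPM, while control replicate 6 had 2.55 times the CPM of replicate 8. A log2 fold change of 0.01, with a standard error of 0.39 (adjusted p = 0.987 in edgeR), therefore lay between 0.83 without control replicate 6 and -0.51 without control replicate 8. The adjusted p of SOCS3 was 0.0451 and 0.125 in these fits, within a range of 0.0451 to 1.00 over 14 alternatives. No direction can be given for SOCS3 from these libraries.

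**Figure D2:**
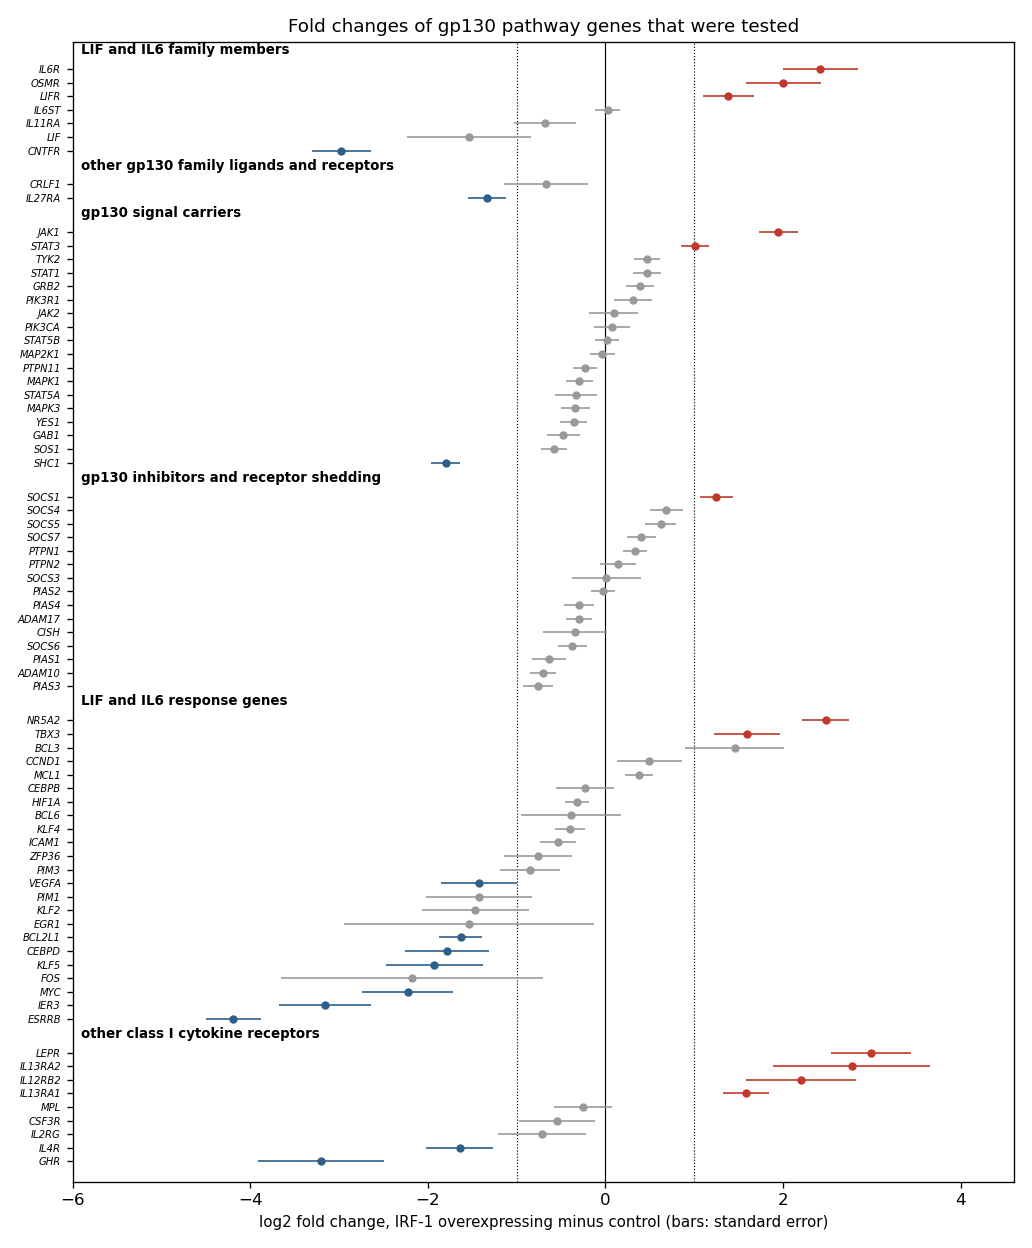
Log2 fold change (IRF-1 overexpressing minus control, points) and standard error (bars) of the 7 tested members and of the 67 tested genes of 5 lists of the gp130 pathway, with called genes in red (higher) or blue (lower), others in grey, and dotted lines at 1 in either direction. IL6R, OSMR and LIFR lie to the right of the dotted line and CNTFR to the left at -2.97, while FOS and EGR1 have the widest bars, with standard errors of 1.47 and 1.41.

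Of the 23 tested genes known to respond to LIF or IL6 in one cell type or another, 2 were called higher and 7 lower, with a median log2 fold change of -0.85 against -0.002 over all genes tested. This balance depended on the control libraries. Without control replicate 6, 5 of the 23 were called higher and 4 lower, and without control replicate 8, 2 higher and 10 lower. Without overexpressing replicate 1 the numbers were 1 and 4, and without overexpressing replicate 3 they were 2 and 4. GBX2, which had 25 and 10 counts against 0 and 0 and was not tested with all libraries, was called higher in 3 of these fits and is not counted. KLF5 and CEBPD, among the 7 called lower, passed the low-count filter through the control libraries only. The higher ones with all libraries were NR5A2 (2.48, adjusted p = 0.000811 in edgeR), which encodes a nuclear receptor, and TBX3 (1.59, adjusted p = 0.0161 in edgeR), which encodes a T-box factor. The lower ones were ESRRB (-4.19), IER3 (-3.16), MYC (-2.23), KLF5 (-1.93), CEBPD (-1.78) and BCL2L1 (-1.63), with adjusted p between 0.000246 and 0.0336 in edgeR, and VEGFA (-1.42, adjusted p = 0.0416 in edgeR). ESRRB, a nuclear receptor of the pluripotency network, had 31 and 37 counts with IRF-1 overexpression against 502 and 402 in the controls. Exons of BCL2L1 share 1994 bases with ID1 and 192 with TPX2 on the opposite strand, and 487 with an unnamed gene on the same strand. The counts of MYC do not separate the pig gene from the lentiviral c-MYC. The controls differed from each other in many genes of this list. FOS had 5777 counts in control replicate 6 and 33 in replicate 8, and EGR1 had 8151 and 69, whereas the overexpressing libraries lay in between with 658 and 1162 counts for FOS and 1375 and 2627 for EGR1. Both were named after their values were seen. Log2 fold changes turned from 4.44 without control replicate 6 to -3.16 without control replicate 8 for FOS and from 4.52 to -2.51 for EGR1, so that no direction can be given for them. In 11 of the 23 genes the CPM of the controls differed by more than 2-fold, against 7.58% of all genes tested. Without control replicate 6 the log2 fold change of IER3 was -2.38, that of MYC -1.48 and that of VEGFA -0.72, and the latter calls were lost (adjusted p = 0.0511 and 0.169 in edgeR, within ranges of 1.44e-05 to 0.0859 and 0.000101 to 0.405 over 14 alternatives). The calls of MYC (-1.86, adjusted p = 0.0811 in edgeR) and TBX3 (1.25, adjusted p = 0.141 in edgeR, of at most 0.18) were also lost without overexpressing replicate 1, and that of VEGFA without replicate 3 (-1.06, adjusted p = 0.143 in edgeR). KLF5 was not called without overexpressing replicate 1 (-1.54), overexpressing replicate 3 (-2.38) or control replicate 8 (-1.51), nor CEBPD without any 1 of the 4 libraries (-1.91 to -1.65). With DESeq2 the adjusted p was 0.0861 for KLF5 and 0.0957 for CEBPD, and with limma-voom it was 0.0586 for VEGFA. The calls of ESRRB, IER3, BCL2L1 and NR5A2 were kept under all 14 alternatives.

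Of 19 class I cytokine receptors outside the gp130 family that have an identifier, 6 were at or under the floor in all libraries. The 9 that were tested gave 4 calls higher and 2 lower, where 8.61% and 10.6% of all genes tested were so called. Of these 9, however, IL13RA2, IL12RB2 and GHR passed the low-count filter only through the group in which they are higher. The other 6 gave 2 calls higher (LEPR and IL13RA1) and 1 lower (IL4R). LEPR, the leptin receptor and a structural relative of gp130, had 432 and 173 counts with IRF-1 overexpression against 20 and 34 in the controls, and a log2 fold change of 2.99, with a standard error of 0.449 (adjusted p = 0.00271 in edgeR). IL13RA1, which forms a receptor with IL4R, had 1551 and 777 counts against 275 and 276. For IL13RA1 the log2 fold change was 1.58, with a standard error of 0.257 (adjusted p = 0.00371 in edgeR, 0.0683 with glmTreat). These were called with any 1 library left out, although the value of LEPR was 2.37 without overexpressing replicate 1. The calls of IL13RA2 (2.77), IL12RB2 (2.20), IL4R (-1.64) and GHR (-3.20) rested on low counts, at most 152 in any library. The call of IL12RB2 was lost without any 1 of the 4 libraries (1.74 to 2.70), and with DESeq2 neither it (adjusted p 0.103) nor IL13RA2 (0.136) was called. Those of IL13RA2 (2.80 and 2.76), IL4R (-1.74 and -1.53) and GHR (-4.25 and -2.65) were lost without overexpressing replicate 1 or 3. IL13RA2 (1.87) and IL4R (-1.18) were not called without control replicate 6 either, nor GHR (-2.86) without control replicate 8. In the controls IL13RA2 had 0 counts in replicate 6 and 4 in replicate 8.

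Marker lists were used to check the labelled cell type. Of 15 pluripotent cell markers 7 had an identifier, and POU5F1 and SOX2 were not among them. Their summed level was 1313 and 1348 CPM in overexpressing replicates 1 and 3 and 1544 and 1709 CPM in control replicates 6 and 8. DNMT3B was the most abundant, and without it 279 and 342 CPM against 850 and 712 CPM were left. None was at 0, and NANOG had only 8 and 11 counts against 5 and 9. LIN28A, ESRRB and CDH1 were called lower, and 0 of the 6 tested were called higher. The 11 trophoblast markers with an identifier summed to 311 and 1158 CPM in the overexpressing libraries and 15602 and 9556 CPM in the controls, most of it keratin KRT8, the most abundant, and its partner KRT18, which simple epithelia in general express. Without these keratins the other 9 summed to 46.7 and 54.9 CPM in the overexpressing libraries and 41.5 and 31.4 CPM in the controls, of which TFAP2A made up 31.0 and 42.8 CPM against 2.88 and 2.69 CPM. Without TFAP2A as well, the other 8 summed to 15.7 and 12.1 CPM against 38.6 and 28.8 CPM. TFAP2A was called higher (3.72), and TFAP2C (-2.82) and DAB2 (-3.09), like the keratins, were called lower. DAB2 passed the low-count filter through the controls only and shares 1682 exon bases with C9 on the same strand. CDX2 and HAND1, which define the trophoblast lineage, were at 0 in all 4 libraries, and of the 7 tested 1 was called higher and 4 lower. The 19 fibroblast markers with an identifier summed to 2102 and 1936 CPM against 3240 and 2895 CPM. VIM was the most abundant, and 1066 and 1081 CPM against 2135 and 1822 CPM were left without it. COL5A1, COL6A3 and LUM were at or under the floor, and of the 13 tested 2 were called higher and 5 lower, of which DCN passed the filter through the controls only. The 10 blood cell markers summed to 44.2 and 35.0 CPM against 182 and 129 CPM. Of that sum 9.22 and 9.18 CPM against 13.4 and 9.38 CPM were left without AIF1, the most abundant, and CD3E and LYZ were at 0. Of the 5 blood cell markers tested, 1 (AIF1) was called lower. Over all genes tested, 8.61% were called higher and 10.6% lower. All 4 summed lists were thus lower in both overexpressing libraries, although the trophoblast list without its keratins was higher, and lower again without TFAP2A as well. Among the called members CNTFR was lower too, whereas LIFR, OSMR and IL6R were higher. The part of these cell types in the results for the LIF and IL6 family was not tested.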

How the data were processed

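The values are raw counts per Ensembl gene that the authors deposited for each of 4 RNA-seq libraries, not normalized or pooled, with the summed exon length beside them. According to the methods and the submitters' processing notes, reads were mapped to Sscrofa11.1 with HISAT2 and counted with featureCounts 1.6.4. The strand setting and the treatment of reads with several positions are not given in the sources used here. ChIP-seq libraries were not analysed here.

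Counts were tested with edgeR 4.0.16 in R 4.3.3 (TMM factors between 0.982 and 1.02, filterByExpr by group, quasi-likelihood test, Benjamini-Hochberg adjustment over 13250 genes). The standard error is the log2 fold change divided by the square root of F, and intervals use the degrees of freedom of that test. CPM are scaled by TMM, and intervals and floors cover counting error and the spread of 2 libraries per group only. Python 3.11.15 with scipy 1.17.1, pandas 2.3.3, matplotlib 3.10.9 and numpy 2.4.6 gave the tables and plots.

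Named genes are the 8 members, IRF1, JAK1, JAK2, TYK2, STAT3, SOCS3, PTPN11, called genes of the 5 pathway lists (at most 6 per list and direction), the most abundant marker of each list and those at 0, and the 3 genes most like LIFR and IL6ST. Others were chosen after their values were seen, and some genes are not reported here. The members and lists were chosen with earlier results of these data known, so no list was tested.

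The 14 alternatives were scaling by library size alone, by upper quartile or by DESeq2's size factors, no filter or at least 1 CPM in 2 libraries, DESeq2 1.42.0, limma-voom (limma 3.58.1), no fold-change minimum, glmTreat, a table from which 37 mitochondrial genes and the 10 most highly counted genes were removed, and each library left out in turn. In the latter, a group with 1 library is assumed to vary like the other group. On simulated counts for 13250 genes of this comparison, the test found 189 of 200 genes that had been shifted by 2 on the log2 scale, in the right direction, and wrongly called 4 others. The simulation gave all genes the same dispersion (0.0313) and drew the libraries independently. It changed 200 genes, whereas 2551 were called in the data, so its numbers are not the error rates of the real comparison. In this simulation limma-voom found 189, DESeq2 177 and glmTreat 129 of the 200 genes, with 4, 3 and 0 wrong calls.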

Additional observations from a re-analysis of the deposited data

How the results depend on the processing

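CNTFR, IL6R and IRF1 kept their direction and their call under all 14 alternatives, with log2 fold changes of -3.51 to -2.56, 2.10 to 2.77 and 6.31 to 6.62. IL11RA was called under none of them (-1.13 to -0.31). With glmTreat, which tests for a change beyond the minimum, LIFR (1.38) and OSMR (2.00) were not called. With each library left out in turn, the log2 fold change ranged from 1.06 to 1.66 for LIFR, from 1.64 to 2.52 for OSMR, from -3.05 to -0.75 for LIF and from -0.072 to 0.13 for IL6ST, whose sign turned without overexpressing replicate 1. IL6 could be fitted only without the filter and has no fold change, being at or near the floor in both groups.

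The 1141 genes called higher and 1410 called lower became 611 and 603 with glmTreat, and 1842 and 2054 with no fold-change minimum. With each library left out in turn they ranged from 756 to 1156 and from 874 to 1548, the lowest without overexpressing replicate 1. In the 5 pathway lists, 9 higher and 11 lower calls became 3 and 4 with glmTreat and ranged from 5 to 11 and from 6 to 13 with 1 library left out, where 1 of the higher calls was GBX2 in 3 of these fits, a gene not tested with all libraries. The cause of these shifts was not tested.

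Without the length correction, the log2 ratio to IL6ST was -2.77 in place of -3.28 for LIFR in the overexpressing cells and -4.10 in place of -4.62 in the controls. For CNTFR it was -3.19 in place of -1.49 in the overexpressing cells. In the controls it was -0.15 in place of 1.54, a reversal that follows from the short summed exon length of CNTFR (2191 bases, against 7092 for IL6ST). Among other named genes, the sign turned with 1 library left out for JAK2 (-0.23 to 0.52), SOCS3 (-0.51 to 0.83), FOS (-3.16 to 4.44), EGR1 (-2.51 to 4.52) and RICTOR (-0.0145 to 0.13). With limma-voom it turned for FOS (0.65) and EGR1 (0.96). No paired analysis was possible because the IRF-1 overexpressing and control libraries share no replicate number. Depth limits what can be said of LIF and IL6.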
